A study of Mus musculus with 12 samples.

Results

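The genes described here are 45 mouse genes of the cell cycle and of DNA replication, out of 54532 genes in the deposited count table. They were picked by gene symbol as a list of cell cycle genes, with earlier results of these data known, and are ordered by the step they serve. They comprise 10 G1 cyclins, kinases and inhibitors, 5 genes of the Rb family and E2F factors, 8 replication licensing genes, 5 genes of the replication fork and nucleotide supply, and 17 genes of G2 and mitosis. All 45 are annotated as protein coding, each symbol matched 1 gene, and all 45 were among the 16038 genes that passed the filter on low counts.

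RNA was measured in C2C12 cells, an established line of mouse skeletal muscle precursors that divide as myoblasts and can leave the cell cycle to form muscle fibres. Confluent dishes received PFOS (perfluorooctanesulfonate, a persistent fluorinated surfactant) for 24 h, with 4 libraries at 0 µM, 4 at 2 µM and 4 at 6 µM. All 3 groups were at 100% confluency, where crowding can itself restrain division. Whether the 4 libraries of a dose stem from separate dishes is not stated in the labels. The p-values therefore speak only of the spread among these libraries, part of which may be technical.

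Cells enter the cycle when D-type cyclins activate Cdk4 and Cdk6, which with cyclin E and Cdk2 phosphorylate the Rb proteins and free E2F factors to switch on S phase genes. Cdc6 and Cdt1 load the Mcm helicase on replication origins, and Pcna, ribonucleotide reductase, thymidylate synthase and thymidine kinase serve DNA synthesis itself. Cyclin B with Cdk1, under Foxm1, then drives mitosis, where Aurora and Polo kinases, checkpoint kinases and kinesins move the chromosomes apart. In myoblasts this programme is shut down before terminal differentiation, when Rb and the inhibitors of the cyclin-dependent kinases keep the cells out of S phase.

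Promoters of such genes often carry E2F elements, a cell cycle homology region (CHR) or CCAAT boxes. RefSeq promoter windows on GRCm38.p6, each 300 bases long from 250 before to 50 after a start, were at hand for 36 of the 45 genes. The other 9 are Aurkb, Ccna2, Ccnd1, Ccnd2, Ccne2, Foxm1, Kif20a, Mcm4 and Rb1. The windows below are the called genes that had one, with Mcm6 as a window rich in E2F letters and Cdk1 as a mitotic gene that holds all 3 kinds. Each is written 5′ to 3′ on the gene's strand, and capitals mark matches on either strand to TTTCGCGC, TTTCCCGC or TTTGGCGC for E2F, to TTTGAA or TTCGAA for CHR, and to CCAAT.
Mcm6, chr1:128359656-128359955, minus strand: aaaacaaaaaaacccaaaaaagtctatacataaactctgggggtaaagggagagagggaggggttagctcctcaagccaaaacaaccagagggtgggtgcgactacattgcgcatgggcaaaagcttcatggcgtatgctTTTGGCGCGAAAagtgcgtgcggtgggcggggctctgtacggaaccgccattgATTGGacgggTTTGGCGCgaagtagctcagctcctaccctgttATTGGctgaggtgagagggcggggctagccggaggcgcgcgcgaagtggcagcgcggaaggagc
Mcm2, chr6:88898731-88899030, minus strand: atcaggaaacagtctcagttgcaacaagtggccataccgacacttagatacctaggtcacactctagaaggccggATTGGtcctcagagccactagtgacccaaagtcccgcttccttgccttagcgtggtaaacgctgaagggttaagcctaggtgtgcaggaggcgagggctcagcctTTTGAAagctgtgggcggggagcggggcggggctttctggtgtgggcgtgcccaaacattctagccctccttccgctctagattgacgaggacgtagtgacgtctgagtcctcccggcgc
Cdc6, chr11:98907901-98908200, plus strand: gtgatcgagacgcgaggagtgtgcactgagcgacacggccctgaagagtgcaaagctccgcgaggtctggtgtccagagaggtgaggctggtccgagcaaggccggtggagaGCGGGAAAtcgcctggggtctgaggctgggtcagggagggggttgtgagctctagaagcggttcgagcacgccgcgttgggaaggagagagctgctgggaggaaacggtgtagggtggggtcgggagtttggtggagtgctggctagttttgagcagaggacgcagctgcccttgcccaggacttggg
E2f2, chr4:136172024-136172323, plus strand: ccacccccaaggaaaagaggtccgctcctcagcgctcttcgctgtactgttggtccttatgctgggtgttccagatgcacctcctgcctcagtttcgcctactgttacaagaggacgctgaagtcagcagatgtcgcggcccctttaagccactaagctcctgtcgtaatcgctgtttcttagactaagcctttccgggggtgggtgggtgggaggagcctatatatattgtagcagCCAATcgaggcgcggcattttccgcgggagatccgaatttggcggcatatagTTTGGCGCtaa
Rrm2, chr12:24708004-24708303, plus strand: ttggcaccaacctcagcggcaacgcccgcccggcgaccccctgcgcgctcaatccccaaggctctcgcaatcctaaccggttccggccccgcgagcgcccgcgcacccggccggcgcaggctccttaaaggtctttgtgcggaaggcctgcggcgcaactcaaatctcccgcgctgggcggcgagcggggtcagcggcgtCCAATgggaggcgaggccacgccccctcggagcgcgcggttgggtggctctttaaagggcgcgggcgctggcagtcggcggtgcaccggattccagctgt
Tk1, chr11:117825965-117826264, minus strand: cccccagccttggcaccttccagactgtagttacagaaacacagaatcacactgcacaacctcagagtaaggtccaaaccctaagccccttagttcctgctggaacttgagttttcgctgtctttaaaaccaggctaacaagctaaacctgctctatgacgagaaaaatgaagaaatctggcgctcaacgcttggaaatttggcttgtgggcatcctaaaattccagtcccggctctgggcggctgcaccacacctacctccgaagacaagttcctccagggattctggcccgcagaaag
Cdk1, chr10:69352863-69353162, minus strand: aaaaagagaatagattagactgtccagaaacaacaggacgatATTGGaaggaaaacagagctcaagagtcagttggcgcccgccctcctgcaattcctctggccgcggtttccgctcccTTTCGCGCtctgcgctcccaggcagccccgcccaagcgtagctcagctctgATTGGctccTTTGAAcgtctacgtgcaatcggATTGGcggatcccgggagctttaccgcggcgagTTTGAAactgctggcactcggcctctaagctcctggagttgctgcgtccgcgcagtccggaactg

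E2F letters stood in the windows of 6 of the 7 licensing genes that had one (Cdc6, Cdt1, Mcm3, Mcm5, Mcm6 and Mcm7, not Mcm2), and in 10 of all 36 genes (27.8%). Of all 27025 symbols with a window, 2.12% held them in any window. CHR letters stood in 11 of 13 mitotic genes and in 15 of the 36 (41.7%), against 21.7% of all symbols, and CCAAT in 12 of 13 mitotic genes and 26 of the 36 (72.2%), against 41.1%. The 36 genes have 40 windows between them. Over all 32851 windows the shares were 1.84% for E2F, 19.2% for CHR and 37.4% for CCAAT letters. In Mcm6, a TTTGGCGC and a TTTCGCGC on the other strand overlap and are written as 1 run of capitals. Rrm2 held only a CCAAT and Tk1 none of the letters. E2f2 has a second window, at another start, with 3 CCAAT and 1 TTTGAA. A match here is a match of letters, and its absence says only that those letters are not in the window.

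The libraries held 30206155 to 50351082 counts, and mitochondrial genes took 1.87% to 2.57% of them. The deviation of a library from its dose mean, as the root mean square of log2 CPM over all tested genes, was largest in replicate 2 (0.424) and replicate 3 (0.422) at 6 µM and in replicate 1 at 0 µM (0.402), and lay between 0.339 and 0.39 in the other 9 libraries. A gene is called changed here at an adjusted p under 0.05 in edgeR's quasi-likelihood test, adjusted by Benjamini-Hochberg over all 16038 genes, which 178 to 1322 genes per comparison passed. Levels are CPM values, gene counts scaled to 1 common library total with TMM factors.

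Cell cycle RNA was abundant in these confluent cultures at every dose. Per kilobase of gene length, the level at 0 µM was highest for Top2a, the topoisomerase that untangles sister chromatids, at 111 CPM per kilobase, and for Rrm2, the small subunit of ribonucleotide reductase, at 108. Cdk4 followed at 90.1, the proliferation marker Mki67 at 87.4 and Cdc20, which activates the anaphase-promoting complex, at 86.7 CPM per kilobase. The lowest levels per kilobase were those of Ccne1, a cyclin partner of Cdk2, at 4.28, Cdk6 at 5.44 and Cdc6 at 5.52. Among all tested genes, the 45 ranged from percentile 49.7 (Ccne1) to 97.6 (Top2a) on that scale.

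**Figure D1:**
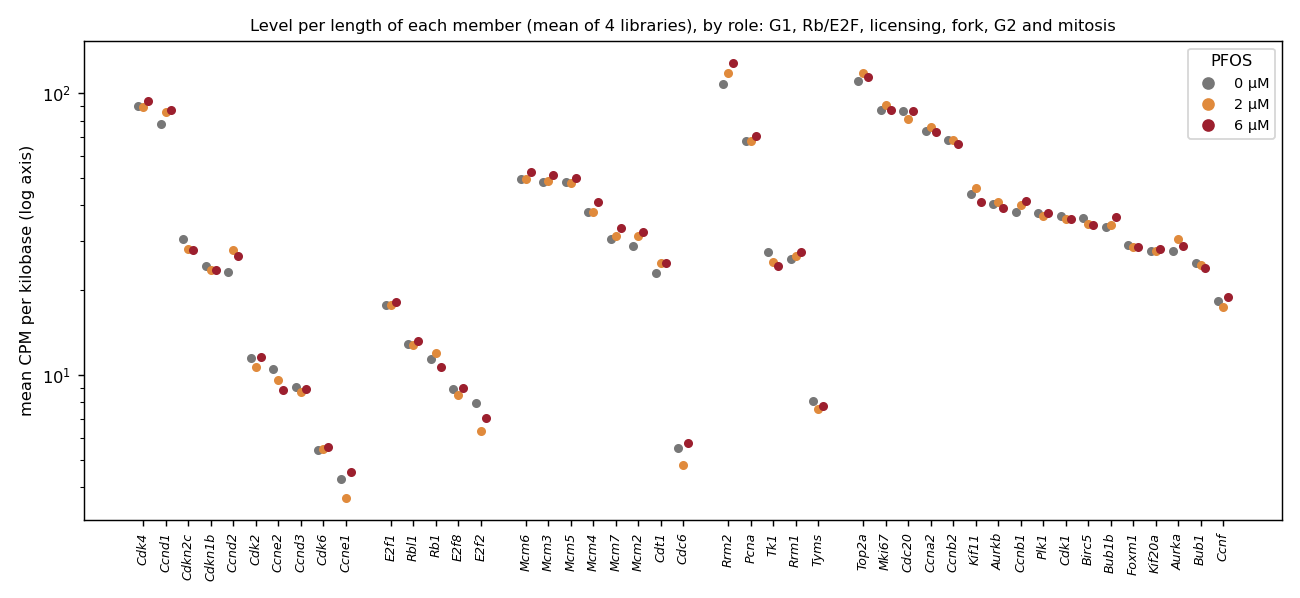
Mean level of each of the 45 genes in CPM per kilobase of gene length (log axis), with 1 point for each dose and the genes grouped by role. Top2a (111) and Rrm2 (108) were highest at 0 µM and Ccne1 (4.28) lowest, and the points of the 3 doses lie close together for nearly every gene.

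PFOS changed few of these genes and by small amounts. At 2 against 0 µM, 3 of 45 (6.67%) were called, beside 2.35% of all tested genes. Ccnd1 and Ccnd2 were higher, a direction called for 1.61% of all tested genes, and E2f2 was lower, as were 0.742%. At 6 against 0 µM, 5 of 45 (11.1%) were called, beside 8.24% of all tested genes. Ccnd1, Ccnd2, Mcm2 and Rrm2 rose, beside 4.58% of all tested genes, and Tk1 fell, beside 3.66%. With upper-quartile scaling in place of TMM, the same 5 genes were called, and the calls over all genes were 598 higher and 662 lower, against 735 and 587 with TMM. At 6 against 2 µM, Cdc6 alone was called, 2.22% of the 45 beside 1.11% of all tested genes. It rose, as did 0.561% of all tested genes, and none of the 45 fell, beside 0.549%. The shares at 6 against 0 µM and at 6 against 2 µM are near those of all genes.

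The folds of the 45 genes were small. The median size of the log2 fold change, without its sign, was 0.06 for the 45 genes in each comparison, against 0.11, 0.13 and 0.10 for all tested genes at 2 against 0, 6 against 0 and 6 against 2 µM. The signed medians of the 45 were -0.007, 0.028 and 0.032, against -0.011, -0.016 and -0.005 over all tested genes. A log2 fold change beyond 0.25 in either direction was found for 2 of the 45 genes (4.44%) in each comparison, against 23.8%, 29% and 23.3% of all tested genes. The 45 are also measured more closely: the median standard error was 0.0466 at 6 against 0 µM, against 0.0976 over all tested genes, and the median SD of log2 CPM within a dose was 0.0552 against 0.143. The CPM of the 2 doses did not overlap for 12, 13 and 12 of the 45 genes (26.7%, 28.9% and 26.7%), beside 8.37%, 12.5% and 8.6% of all tested genes. At an unadjusted p under 0.05, the same comparisons gave 10, 16 and 10 genes (22.2%, 35.6% and 22.2%), beside 14.1%, 21.6% and 12.5%. The members are highly expressed and the background holds many low genes, so these shares do not compare genes of like precision.

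**Figure D2:**
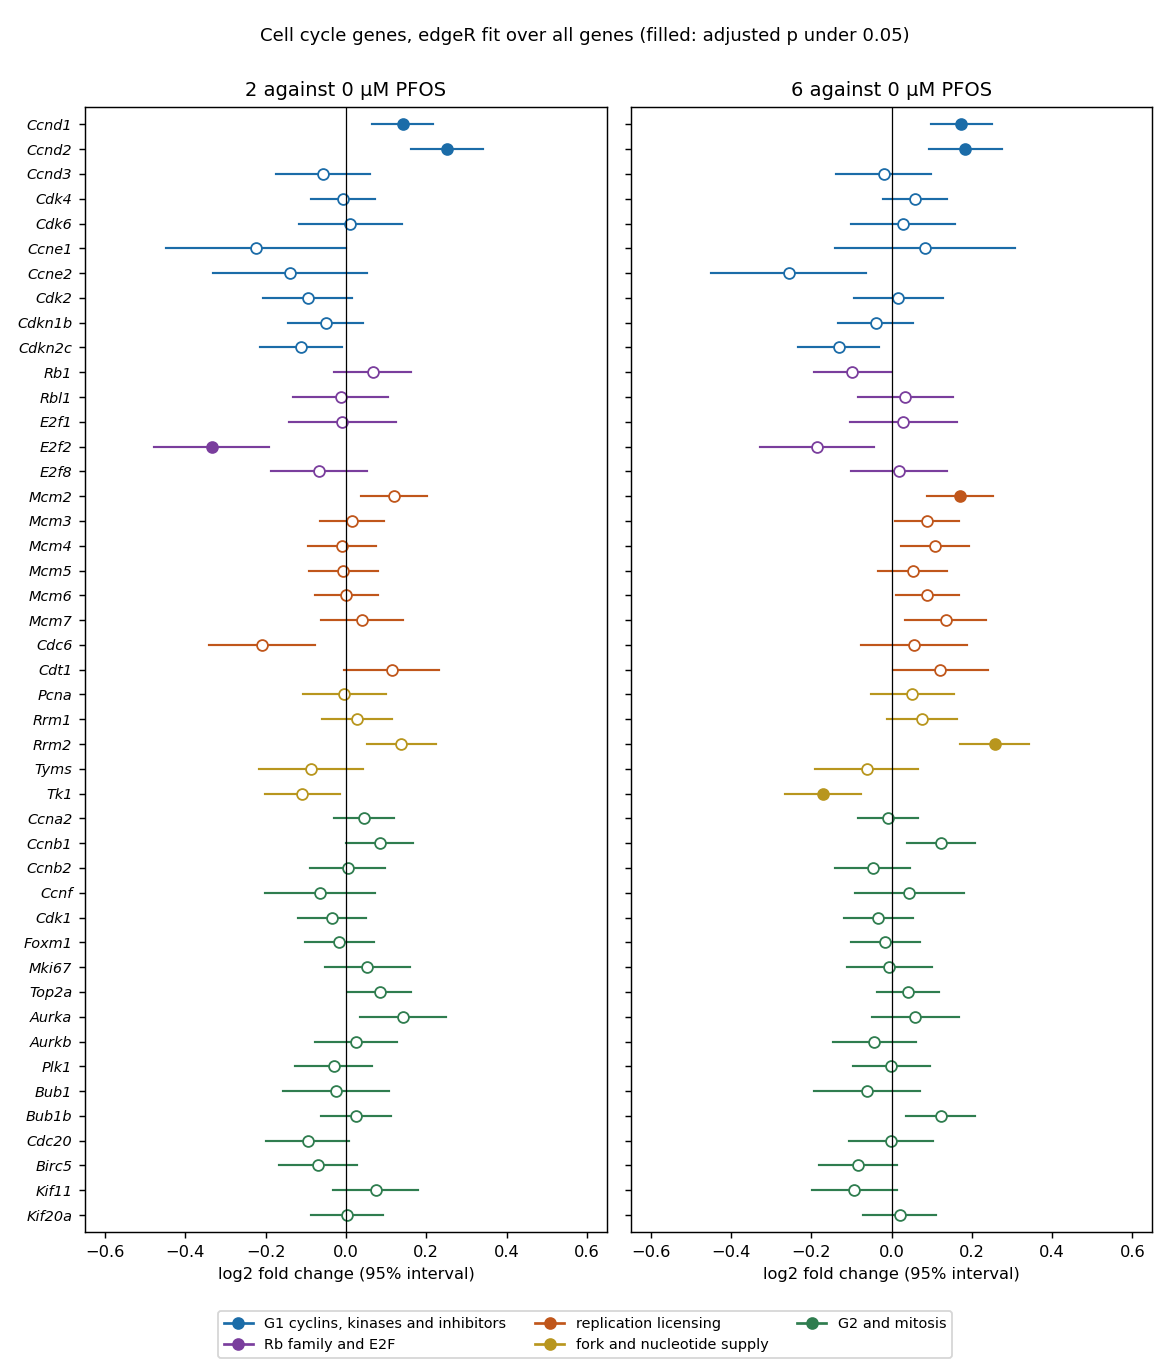
Log2 fold change of each of the 45 genes with its 95% interval from edgeR's quasi-likelihood fit, for 2 against 0 µM and 6 against 0 µM PFOS, coloured by role. Filled points are called at an adjusted p under 0.05: 3 genes at 2 against 0 µM and 5 at 6 against 0 µM, with E2f2 at -0.33 the farthest from 0.

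In G1, the cyclin D genes Ccnd1 and Ccnd2 rose at both doses, and no other gene of the 10 was called. Ccnd1 (ENSMUSG00000070348, chromosome 7, 144929931 to 144939925, minus strand, GRCm38) encodes cyclin D1, which couples growth signals to Cdk4 and Cdk6. It had 356.9, 359.9, 366.7 and 379.3 CPM at 0 µM, 403.7, 400.5, 402.0 and 406.4 CPM at 2 µM, and 426.5, 410.7, 416.0 and 396.1 CPM at 6 µM. All 8 libraries with PFOS lay above all 4 without it. The log2 fold change was 0.14 at 2 against 0 µM (SE 0.0364, adjusted p = 0.0407 by edgeR's quasi-likelihood test) and 0.17 at 6 against 0 µM (SE 0.0364, adjusted p = 0.00373 by the same test). The call at 2 µM is near the threshold: it ended without any 1 of 9 libraries (replicates 1, 2 and 3 at 0 µM, replicates 1 to 4 at 2 µM, replicates 1 and 3 at 6 µM), with an adjusted p in edgeR's test from 0.0506 to 0.141 and a log2 fold change from 0.13 to 0.15. It also ended with upper-quartile scaling (adjusted p = 0.0811), no count filter (0.0572), the replicate block (0.0835), only the doses compared (0.0691) and without the 3 most deviating libraries (0.088), all in edgeR's test. At 6 µM the call held without any single library and ended without the 3 most deviating ones (adjusted p = 0.0587 in edgeR's test).

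Ccnd2 (ENSMUSG00000000184, chromosome 6, 127125162 to 127152193, minus strand) encodes cyclin D2, another activator of Cdk4 and Cdk6. Its CPM were 229.1, 207.3, 227.0 and 214.0 at 0 µM, 259.9, 254.6, 254.8 and 275.0 at 2 µM, and 244.2, 251.8, 259.8 and 240.5 at 6 µM. The libraries with PFOS again lay above all without it, and those of 2 and 6 µM overlapped. Its log2 fold change was 0.25 at 2 against 0 µM (SE 0.0437, adjusted p = 0.00341 by edgeR's quasi-likelihood test) and 0.18 at 6 against 0 µM (adjusted p = 0.0102 by the same test). The call at 2 µM held in each of 22 alternative settings. The call at 6 µM held in 21 of them and ended without the 3 most deviating libraries (adjusted p = 0.0799 in edgeR's test).

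Ccnd3, the third D-type cyclin gene, was not called, and its log2 fold change was -0.06 at 2 against 0 µM (95% interval -0.17 to 0.06) and -0.02 at 6 against 0 µM (-0.14 to 0.10). Cdk4, their kinase partner, averaged 292.7 ± 11.2 CPM at 0 µM, 291.4 ± 4.1 at 2 µM and 304.9 ± 7.67 at 6 µM (SD, n = 4 each), and its log2 fold change at 6 against 0 µM was 0.06 (95% interval -0.02 to 0.14). Cdkn1b, the inhibitor p27 that restrains cyclin E with Cdk2, averaged 111.1 ± 2.14, 107.2 ± 5.07 and 108.1 ± 2.99 CPM at 0, 2 and 6 µM (SD, n = 4 each), with a log2 fold change of -0.04 at 6 against 0 µM (-0.13 to 0.05). Cdkn2c, the inhibitor p18 of Cdk4 and Cdk6, lay between 71.82 and 76.5 CPM at 6 µM, below its range of 77.68 to 85.1 CPM at 0 µM, without passing the test (log2 fold change -0.13, adjusted p = 0.103 by edgeR's quasi-likelihood test). The cyclin E genes had the widest spread of the 45 within a dose, with an SD of log2 CPM of 0.164 for Ccne2 and 0.139 for Ccne1. At 6 against 2 µM Ccne1 had the largest log2 fold change of the 45, at 0.31. Its libraries did not overlap there, and it did not pass the test (adjusted p = 0.202 by edgeR's quasi-likelihood test). Against 0 µM its log2 fold change was -0.22 at 2 µM and 0.08 at 6 µM. Ccne2 had a log2 fold change of -0.26 at 6 against 0 µM with overlapping libraries (adjusted p = 0.0966 by the same test). Cdk6 and Cdk2 stayed within a log2 fold change of -0.10 to 0.03 against 0 µM.

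**Figure D3:**
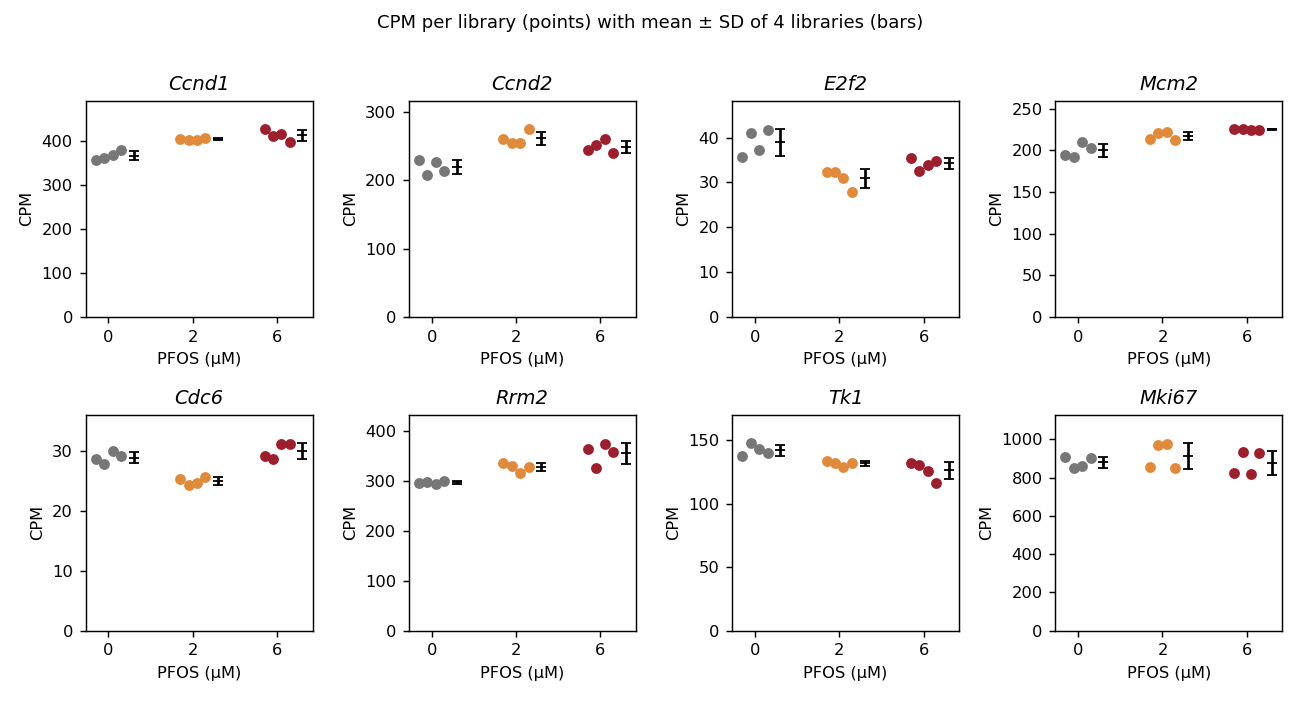
CPM of the 7 called genes and of Mki67 in every library (points, 4 per dose) with the mean and SD of each dose beside them, axes starting at 0. Ccnd1 and Ccnd2 lie higher in all 8 libraries with PFOS than in the 4 at 0 µM, Cdc6 is low at 2 µM alone, and Mki67 overlaps between all doses.

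Among the Rb family and E2F factors, E2f2 fell at 2 µM and no other call was made. E2f2 (ENSMUSG00000018983, chromosome 4, 136172394 to 136196057, plus strand) is an activator of S phase genes. It had 35.64, 41.13, 37.29 and 41.77 CPM at 0 µM, 32.29, 32.31, 31.08 and 27.93 CPM at 2 µM, and 35.56, 32.66, 33.98 and 34.86 CPM at 6 µM. The 2 µM libraries all lay below the others, and the highest at 6 µM was just under the lowest at 0 µM. The log2 fold change was -0.33 at 2 against 0 µM (SE 0.0689, adjusted p = 0.0114 by edgeR's quasi-likelihood test), the largest in size among the 45 in either comparison with 0 µM, and -0.19 at 6 against 0 µM (adjusted p = 0.105). The call ended without replicate 4 at 2 µM, the lowest library (log2 fold change -0.29, adjusted p = 0.0731 in edgeR's test), and held in the other 21 settings.

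Rb1, the retinoblastoma protein that holds E2F in check, averaged 68.75 ± 1.1 CPM at 0 µM, 72.01 ± 1.2 at 2 µM and 64.22 ± 1.17 at 6 µM (SD, n = 4 each). Its 3 doses did not overlap, with 2 µM highest and 6 µM lowest, and no comparison passed the test (adjusted p = 0.0896 at 6 against 2 µM, log2 fold change -0.17, edgeR's quasi-likelihood test; DESeq2 called it, adjusted p = 0.0148). E2f1, the best-known activating factor, averaged 56.14 ± 2.93, 55.84 ± 2.71 and 57.33 ± 4.99 CPM at 0, 2 and 6 µM, and Rbl1, which encodes the Rb relative p107, 77.46 ± 6.18, 76.72 ± 3.55 and 79.28 ± 2.16 CPM (SD, n = 4 each). For both, the log2 fold changes against 0 µM lay between -0.01 and 0.03. E2f8, a repressor of the family, had -0.07 at 2 against 0 µM and 0.02 at 6 against 0 µM.

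Of the 8 licensing genes, Mcm2 alone passed edgeR's test at 6 against 0 µM, where it rose, and Cdc6 alone at 6 against 2 µM. The group as a whole was not tested. Their summed CPM was 1178 ± 21.7 at 0 µM, 1201 ± 16.5 at 2 µM and 1268 ± 11.2 at 6 µM (SD, n = 4 each). The lowest 6 µM library, at 1254, was above the highest at 0 µM, at 1205, and the highest at 2 µM, at 1214. All 8 genes had a positive log2 fold change at 6 against 0 µM, from 0.05 (Mcm5) to 0.17 (Mcm2), as had 7435 of all 16038 tested genes. The 8 signs were the same in each of the 22 alternative settings, which reuse these libraries and are not independent. Of the 8 genes, 6 had an unadjusted p under 0.05, beside 21.6% of all tested genes, and 4 did not overlap between the doses, beside 12.5%. At 6 against 2 µM the 8 log2 fold changes were also above 0 (0.01 to 0.27), as were 7809 of all tested genes. There 6 of the 8 did not overlap, beside 8.6% of all tested genes. That sign held for 7 or all 8 of them in the alternatives. At 2 against 0 µM the signs were mixed, from -0.21 (Cdc6) to 0.12 (Mcm2).

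Mcm2 (ENSMUSG00000002870, chromosome 6, 88883474 to 88898780, minus strand) is a subunit of the replicative helicase. It had 194.8, 192.3, 209.7 and 202.8 CPM at 0 µM, 213.4, 221.0, 221.4 and 212.4 CPM at 2 µM, and 225.5, 225.2, 224.7 and 224.3 CPM at 6 µM. The 3 doses did not overlap, and they stood in the order of dose. The log2 fold change at 6 against 0 µM was 0.17 (SE 0.0394, adjusted p = 0.00842 by edgeR's quasi-likelihood test), and at 2 against 0 µM 0.12 (adjusted p = 0.129, called by DESeq2 at 0.0305). The call held without any single library and ended without the 3 most deviating ones (adjusted p = 0.0823 in edgeR's test).

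The other helicase subunits Mcm3, Mcm4, Mcm5, Mcm6 and Mcm7 had log2 fold changes of 0.09, 0.11, 0.05, 0.09 and 0.14 at 6 against 0 µM, with adjusted p-values from 0.0972 to 0.51 in edgeR's quasi-likelihood test. DESeq2 called Mcm4 (adjusted p = 0.0401) and Mcm7 (adjusted p = 0.0462). The 4 libraries of Mcm4 at 6 µM, at 146.8, 147.3, 141.1 and 153.0 CPM, stood above those at 0 µM, at 135.3, 136.8, 140.1 and 133.7 CPM. At 2 against 0 µM these 5 subunits lay between -0.01 and 0.04. Mcm7 overlaps Cops6 on the opposite strand, whose mean count was 70.7% of that of Mcm7, and the strand setting of the counting is not given in the sources used here.

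Cdc6 (ENSMUSG00000017499, chromosome 11, 98907801 to 98923940, plus strand) is the ATPase that loads the helicase. It had 28.63, 27.77, 30.02 and 29.06 CPM at 0 µM, 25.33, 24.26, 24.7 and 25.58 CPM at 2 µM, and 29.1, 28.69, 31.16 and 31.15 CPM at 6 µM. The 2 µM libraries lay below all others, and those of 6 and 0 µM overlapped. The log2 fold change was 0.27 at 6 against 2 µM (SE 0.0636, adjusted p = 0.0432 by edgeR's quasi-likelihood test), -0.21 at 2 against 0 µM (adjusted p = 0.0932) and 0.06 at 6 against 0 µM (adjusted p = 0.667). The call was weak: it ended without any 1 of 8 libraries (replicate 3 at 0 µM, replicates 1 to 4 at 2 µM, replicates 1, 3 and 4 at 6 µM), with an adjusted p in edgeR's test from 0.0572 to 0.135 and a log2 fold change from 0.25 to 0.28. It also ended with no count filter (adjusted p = 0.0592), the replicate block (0.0749), a covariate for the balance of GC-poor and GC-rich genes (0.0832) and without the 3 most deviating libraries (0.114), all in edgeR's test. DESeq2 called Cdc6 lower at 2 against 0 µM (adjusted p = 0.0374). Cdt1, the loading partner of Cdc6, averaged 72.29 ± 4.56, 78.28 ± 2.62 and 78.64 ± 5.18 CPM at 0, 2 and 6 µM (SD, n = 4 each). Its log2 fold change was 0.11 at 2 against 0 µM, where the libraries did not overlap, and 0.12 at 6 against 0 µM, and neither passed the test (adjusted p = 0.378 and 0.219 in edgeR's test).

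**Figure D4:**
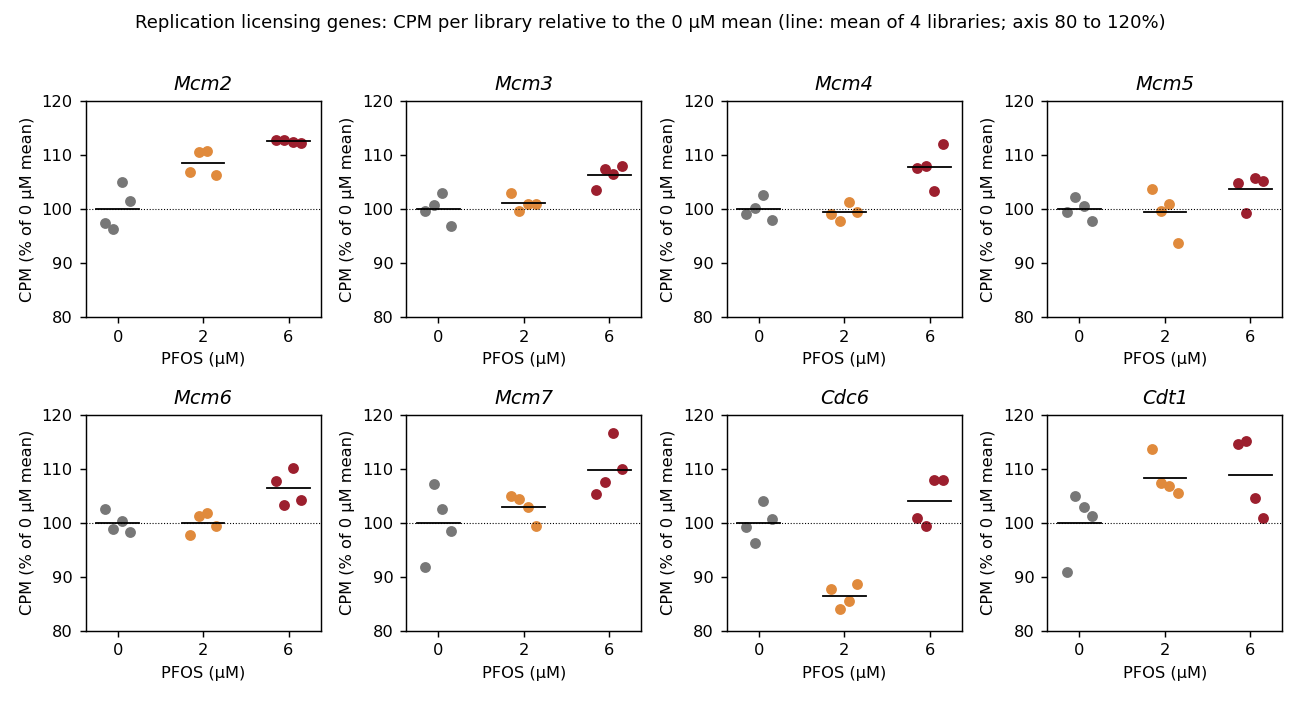
CPM of each of the 8 licensing genes per library, as a percentage of its mean at 0 µM (points, 4 per dose, with a line at their mean, axis from 80 to 120%). The mean at 6 µM lies above 100% for all 8 genes, and Cdc6 is the only gene whose 4 libraries at 2 µM all lie below 100%.

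Of the genes for nucleotide supply, Rrm2 rose and Tk1 fell at 6 µM. Rrm2 (ENSMUSG00000020649, chromosome 12, 24708241 to 24714146, plus strand) makes deoxynucleotides as part of ribonucleotide reductase. Its CPM were 296.3, 299.0, 295.2 and 301.3 at 0 µM, 335.9, 331.1, 317.2 and 327.7 at 2 µM, and 364.1, 326.0, 375.1 and 358.5 at 6 µM. Every library with PFOS lay above every library without it, and replicate 2 at 6 µM fell within the range of 2 µM. The log2 fold change at 6 against 0 µM was 0.26 (1.19-fold, SE 0.0417, adjusted p = 0.000367 by edgeR's quasi-likelihood test), and the call held in each of 22 alternative settings. At 2 against 0 µM it was 0.14 (adjusted p = 0.0885, called by DESeq2 at 0.0203). Rrm1, the large subunit of the same enzyme, had a log2 fold change of 0.08 at 6 against 0 µM (95% interval -0.01 to 0.16).

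Tk1 (ENSMUSG00000025574, chromosome 11, 117815526 to 117826092, minus strand) encodes the thymidine kinase that salvages thymidine in S phase. Its CPM were 137.2, 147.9, 142.9 and 140.0 at 0 µM, 133.9, 132.3, 129.0 and 131.7 at 2 µM, and 131.9, 130.4, 125.8 and 116.6 at 6 µM. All libraries with PFOS lay below those without it, and those of 6 and 2 µM overlapped. On the log2 scale, Tk1 fell by 0.17 at 6 against 0 µM (SE 0.0453, adjusted p = 0.0206 by edgeR's quasi-likelihood test), and its log2 fold change at 2 against 0 µM was -0.11 (adjusted p = 0.256). The call ended without replicate 2 (adjusted p = 0.0699) or replicate 3 (0.0584) at 0 µM, or without replicate 3 (0.0675) or replicate 4 (0.0913) at 6 µM in edgeR's test, with log2 fold changes from -0.17 to -0.13. It ended as well with only the doses compared (adjusted p = 0.0604) and without the 3 most deviating libraries (0.0595), where the log2 fold change was -0.16 and -0.20. Tyms, the thymidylate synthase that makes the same nucleotide anew, averaged 49.22 ± 3, 46.33 ± 2.09 and 47.16 ± 2.96 CPM at 0, 2 and 6 µM (SD, n = 4 each). Pcna, the sliding clamp of the polymerases, averaged 162.6 ± 4.49, 162.2 ± 12.6 and 168.6 ± 5.46 CPM. Neither gene was called. Pcna has a listed copy, Pcna-ps2, with a mean count 34.5% of its own, so its reads may be split.

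No gene of G2 and mitosis was called by edgeR's quasi-likelihood test in any comparison, at 0 of 17, where 2 genes in each had an unadjusted p under 0.05, beside 14.1%, 21.6% and 12.5% of all tested genes at 2 against 0, 6 against 0 and 6 against 2 µM. Log2 fold changes lay between -0.10 and 0.14 at 2 against 0 µM, between -0.09 and 0.12 at 6 against 0 µM and between -0.17 and 0.11 at 6 against 2 µM. None was called by limma-voom, and DESeq2 called Ccnb1 and Bub1b higher at 6 against 0 µM (adjusted p = 0.0161 and 0.0214). In that comparison DESeq2 called 1051 of all 16038 genes higher. The summed CPM of the 17 genes was 3973 ± 74.9 at 0 µM, 4080 ± 103 at 2 µM and 3993 ± 72.1 at 6 µM (SD, n = 4 each), and the libraries of the 3 doses overlapped.

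Mki67, which coats mitotic chromosomes and marks cycling cells, had 905.5, 849.2, 859.5 and 904.0 CPM at 0 µM, 857.2, 971.2, 973.3 and 848.5 CPM at 2 µM, and 823.8, 931.6, 818.1 and 930.2 CPM at 6 µM. All doses overlapped. Its log2 fold change at 6 against 0 µM was -0.01 with a 95% interval of -0.11 to 0.10, which leaves room for a change of that size in either direction. Plk1, the Polo kinase of mitotic entry and exit, averaged 82.66 ± 1.68, 80.94 ± 1.98 and 82.61 ± 3.1 CPM at 0, 2 and 6 µM (SD, n = 4 each). Its interval at 6 against 0 µM ran from -0.10 to 0.10.

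Ccnb1, the cyclin that drives Cdk1, averaged 160.4 ± 4.22, 170 ± 6.36 and 174.6 ± 1.51 CPM at 0, 2 and 6 µM (SD, n = 4 each). Its libraries at 6 µM and at 2 µM all lay above those at 0 µM, without passing edgeR's test (log2 fold change 0.12 at 6 against 0 µM, adjusted p = 0.0646). Bub1b, a kinase of the spindle checkpoint, had 162.4, 151.6, 159.2 and 151.4 CPM at 6 µM, above its 143.4, 140.3, 143.6 and 146.2 CPM at 0 µM (log2 fold change 0.12, adjusted p = 0.0707 by edgeR's quasi-likelihood test). Kif11, the kinesin that separates the spindle poles, had 193.7 to 206.7 CPM at 6 µM, below the 210.6 to 233.2 CPM at 2 µM, and also missed the threshold (log2 fold change -0.17, adjusted p = 0.129). Aurka, the kinase of spindle assembly, had the highest log2 fold change of the 17 at 2 against 0 µM, at 0.14, with no overlap and an adjusted p of 0.186 in edgeR's test.

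The remaining mitotic genes lay close to no change at 6 against 0 µM, and somewhat farther from it in the other comparisons. At 6 against 0 µM, Ccna2 and Ccnb2 (cyclins), Cdk1 (the mitotic kinase), Foxm1 (the activator of mitotic genes), Top2a, Aurkb (the Aurora kinase of the passenger complex), Birc5 (survivin, of the same complex), Bub1 (a checkpoint kinase), Cdc20, Ccnf (a cyclin-like ubiquitin ligase subunit) and Kif20a (a kinesin of cytokinesis) had log2 fold changes between -0.08 and 0.04. The same genes ran from -0.10 (Cdc20) to 0.08 (Top2a) at 2 against 0 µM and from -0.07 (Aurkb) to 0.11 (Ccnf) at 6 against 2 µM. Genes that overlap on the opposite strand were also expressed at Cdc20 (Elovl1, 81.2% of its mean count) and Kif20a (Cdc23, 77.9%). The levels of Cdc20 and Kif20a are therefore less certain if counting ignored strand. Outside mitosis, the same holds for Ccne2 (Ints8, 221%), Ccnd3 (Bysl, 38.3%), Rb1 (Rcbtb2, 30.5%) and Cdk4 (Tspan31, 27.5%).

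**Figure D5:**
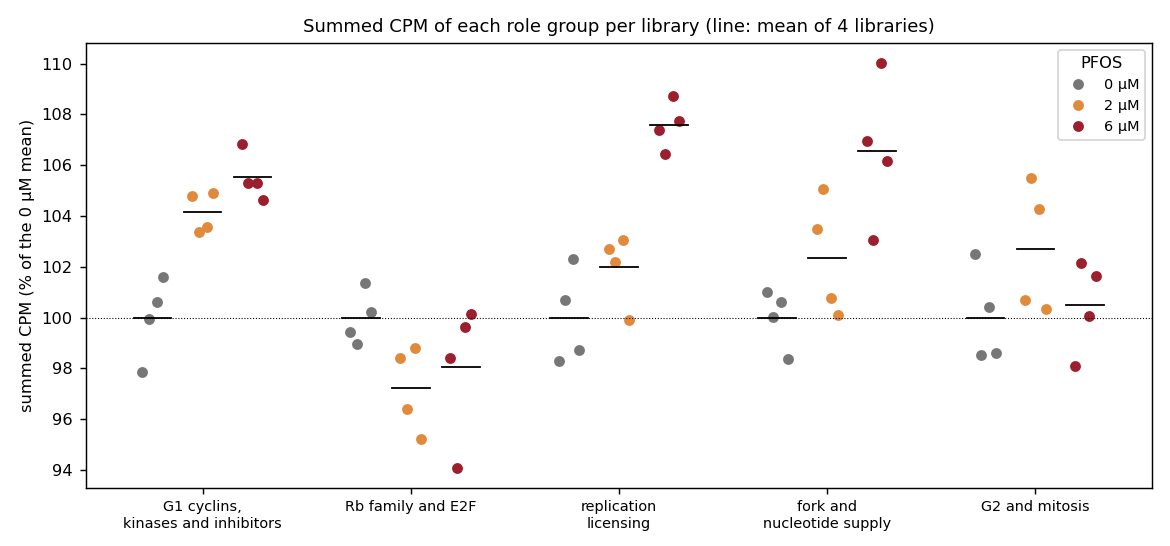
Summed CPM of the genes of each role in every library, as a percentage of the mean at 0 µM (points, with a line at the mean of 4 libraries; the axis does not start at 0). All 4 libraries at 6 µM lie above all at 0 µM for the G1, licensing and fork groups, and the G2 and mitosis group overlaps between doses. At 2 µM, all 4 libraries lie above all at 0 µM for the G1 group and below them for the Rb family and E2F group.

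Summed over a role, the G1 genes came to 1346 ± 21.1 CPM at 0 µM, 1402 ± 11 at 2 µM and 1420 ± 12.7 at 6 µM (SD, n = 4 each). Ccnd1, Cdk4 and Ccnd2 make up much of that sum. Of the 10 G1 genes, 3 had a positive log2 fold change at 2 against 0 µM and 6 at 6 against 0 µM. The fork and nucleotide genes came to 937 ± 10.8, 959 ± 21.7 and 998.4 ± 27 CPM, where Rrm2 is the largest part together with Rrm1. Of these 5 genes, 2 had a positive log2 fold change at 2 against 0 µM and 3 at 6 against 0 µM. The Rb family and E2F genes came to 289.8 ± 3.05, 281.8 ± 4.89 and 284.2 ± 7.98 CPM. The sums are descriptions and carry no test.

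Few genes of the other cell cycle lists were called. At 2 against 0 µM, edgeR's quasi-likelihood test called none of 118 further tested genes of G1 and S control, the replisome and mitosis, with 15 at an unadjusted p under 0.05 (12.7%, beside 14.1% of all tested genes). DESeq2 called 4 there, all mitotic genes and all higher (Incenp, Kif23, Ndc80 and Tpx2), and limma-voom none. Of all 16038 genes, DESeq2 called 751 in that comparison and limma-voom 430. At 6 against 0 µM edgeR called only Spc24, which was lower (1 of 118, 0.847%, beside 8.24% of all tested genes). DESeq2 called 5 there, with Cdkn1a, Lig1, Mybl2 and Tpx2 higher and Spc24 lower, beside 1828 of all 16038 genes. Limma-voom called 3, with Cdkn1a and Mybl2 higher and Spc24 lower, beside 1408 of all genes. At 6 against 2 µM edgeR called only Ndc80, which was lower (1 of 118, 0.847%, beside 1.11% of all tested genes). Limma-voom also called only Ndc80, beside 237 of all 16038 genes. DESeq2 called Ndc80 and, both higher, Pola2 and Uhrf1, beside 445 of all genes. Of the 54 mitotic genes among the 118, 44, 28 and 14 had positive log2 fold changes at 2 against 0, 6 against 0 and 6 against 2 µM. The counts over all 16038 genes were 7552, 7435 and 7809. The balance of GC-poor and GC-rich genes, on the log2 scale relative to all libraries, also varied. It ran from -0.114 to 0.185 in the libraries at 0 µM, from -0.0315 to 0.0875 at 2 µM and from -0.099 to 0.0308 at 6 µM. Many of the mitotic genes are GC-poor, and the part of this balance in their signs was not tested. Spc24 and Ndc80 encode subunits of the Ndc80 complex, which joins kinetochores to microtubules. Spc24 had 49.99, 48.51, 47.36 and 48.6 CPM at 6 µM, all below its 57.04, 62.55, 54.61 and 60.01 CPM at 0 µM (log2 fold change -0.27, SE 0.0545, adjusted p = 0.00288 by edgeR's quasi-likelihood test). Ndc80 had 83.57, 95.44, 90.66 and 84.04 CPM at 6 µM, all below its 100.5, 110.7, 105.1 and 109.5 CPM at 2 µM (log2 fold change -0.27, adjusted p = 0.037 by the same test), and overlapped between 6 and 0 µM. Cdkn1a, the inhibitor p21 that p53 and MyoD can induce, averaged 195.2 ± 21.2, 196.1 ± 5.49 and 222.5 ± 13.8 CPM at 0, 2 and 6 µM (SD, n = 4 each), with a log2 fold change of 0.19 at 6 against 0 µM and an adjusted p of 0.0555 in edgeR's test. It was not called by edgeR but was called higher by both DESeq2 and limma-voom. Its relative Cdkn1c did not pass the filter on low counts.

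Muscle markers moved beside these genes, with calls by edgeR at 6 against 0 µM only. Of 9 tested skeletal muscle markers, 5 (55.6%) fell there in edgeR's quasi-likelihood test (Myod1, Myog, Cdh15, Acta1 and Tnnt1), beside 3.66% of all tested genes. DESeq2 and limma-voom each called those 5 with Des and Mymk lower, beside 777 and 614 of all 16038 genes. At 2 against 0 µM, 6 of the 9 had an unadjusted p under 0.05 in edgeR's test (66.7%, beside 14.1% of all tested genes). DESeq2 called Des and Tnnt1 lower at 2 µM, and limma-voom Tnnt1, beside 227 and 133 of all genes. Between 6 and 2 µM, 4 of the 9 had an unadjusted p under 0.05 in edgeR's test (44.4%, beside 12.5% of all tested genes). DESeq2 called Myod1 and Tnnt1 lower there, beside 216 of all genes, and limma-voom called none. The summed CPM of the 10 listed ranged from 302 to 335 at 6 µM and from 338 to 402 at 0 µM. Myod1, the determination factor of muscle, averaged 23.24 ± 1.52 CPM at 6 µM and 30.28 ± 2.57 CPM at 0 µM (SD, n = 4 each), a log2 fold change of -0.38 (adjusted p = 0.00333 by the same test). Myog, the factor of early differentiation, averaged 4.064 ± 0.236 CPM at 6 µM and 7.15 ± 1.25 CPM at 0 µM (SD, n = 4 each; log2 fold change -0.82, adjusted p = 0.00172 by the same test). Des, the muscle intermediate filament, had a log2 fold change of -0.17 (adjusted p = 0.0555), and Myf5 -0.42 at levels of 1.063 to 3.074 CPM at these doses (adjusted p = 0.376, both edgeR). In bulk RNA, a lower share of differentiating cells and less of an RNA per cell cannot be told apart, and whether either goes with the cyclin D, Mcm2, Rrm2 and Tk1 values was not tested. Marker lists of other cell types summed to less than the muscle list: at most 0.245 CPM for 5 epithelial markers, 7.49 for 5 endothelial, 6.81 for 7 macrophage and blood, 28.3 for 5 neural (mostly Tubb3) and 9.18 for 6 adipocyte markers, with Krt18 and Adipoq at 0 in every library. Tubb3 averaged 18.36, 21.18 and 23.18 CPM at 0, 2 and 6 µM, near Myod1 at 6 µM. DESeq2 and limma-voom called Tubb3 higher at 6 against 0 µM, and edgeR did not (adjusted p = 0.0517 by edgeR's quasi-likelihood test). Of the adipocyte list only Fabp4 passed the filter, and it rose at 6 against 0 µM (log2 fold change 0.46, adjusted p = 0.0385 by edgeR's quasi-likelihood test), with the summed list at 6.63 to 9.18 CPM at 6 µM and 5.63 to 6.18 CPM at 0 µM. DESeq2 called that rise of Fabp4 as well, and limma-voom did not. The part of Fabp4 in the cell cycle values was not tested.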

How the data were processed

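The authors deposited a table of whole-number counts per gene for 54532 genes in 12 libraries, without normalization. Reads were aligned with HISAT2 on GRCm39, per the submitters' processing notes. The aligner's version, the counting program with its strand setting, and the annotation release: not given in the sources used here. Coordinates in the table equal those of GENCODE release M21 for 53585 of 54495 shared genes (98.3%) and for 43 of the 45 genes reported, so they are named GRCm38. Doses and replicate numbers come from the sample titles.

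The deposited counts were tested in R 4.3.3 with edgeR 4.0.16, using TMM scaling, filterByExpr by dose (16038 genes kept, 38494 not), and the quasi-likelihood test on 1 mean for each dose fitted to the 12 libraries together (9 residual degrees of freedom). P-values were adjusted by Benjamini-Hochberg over all tested genes, with calls under 0.05 and intervals of 95%. CPM per kilobase divides CPM by the table's gene length. The common biological coefficient of variation was 10.8%. Libraries of a dose differed by more than counting noise (chi-square per degree of freedom from 8.29 to 17), so none was taken as a repeat of another.

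Alternatives were DESeq2 1.42.0, its size factors in the edgeR fit, limma-voom (limma 3.58.1), upper-quartile scaling, no filter, a mean count of at least 50, a replicate block, only the doses compared, and each library left out. Leaving out the 3 most deviating libraries, and a covariate for the balance of GC-poor and GC-rich genes, were chosen after seeing the data. The steps were tested on simulated data. The smallest planted change was larger than the changes of all called genes but E2f2, so that test does not cover changes this small. DESeq2 was allowed a larger share of false calls in it than the other tools. The genes, lists and tests were chosen with earlier results of these data known. Genes called in any comparison are given in every library, 3 role-defining genes of each role and Cdkn1a, Cdkn1c, Myod1, Myf5, Des and Myog whatever their p, others by range, and up to 4 called genes per direction of each further list (118 of 122 listed genes tested). Values given singly for other genes were picked after they were seen.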

Additional observations from a re-analysis of the deposited data

Results flagged for a closer look

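Of 135 sets of 4 libraries (45 genes at 3 doses), 2 held a library far from the other 3 by Dixon's test, where chance gives about 1 in 20. Mcm5, a helicase subunit, had 191.7 CPM in replicate 2 at 6 µM, below the 202.4 to 204.2 CPM of the other libraries of that dose. Aurkb had 116.7 CPM in replicate 3 at 2 µM, below the 122.5 to 123.3 CPM of the other libraries of that dose. Cdc6 differed between the doses in the direct test, with a log2 fold change of 0.27 at 6 against 2 µM (0.266 to 3 decimals, adjusted p = 0.0432 by edgeR's quasi-likelihood test), and that call ended without any 1 of 8 libraries, as given above.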

How the results depend on the processing

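Over 22 alternative settings no gene's call changed direction, and of 2970 log2 fold changes of single genes 36 lost and 18 gained a call. The calls of Ccnd2 at 2 against 0 µM and Rrm2 at 6 against 0 µM held in all 22. At 2 against 0 µM, the genes of the 45 called higher came to 1, not 2, with upper-quartile scaling, no count filter, the replicate block, only the doses compared, or without the 3 most deviating libraries, and DESeq2 called 6 (4 higher, 2 lower). At 6 against 0 µM, DESeq2 called 9 (8 higher), where it called 1828 of all 16038 genes (1051 higher). In that comparison, 2 of the 45 were lower with no count filter or the GC covariate, and 0 were lower with only the doses compared. Without the 3 most deviating libraries 1 was called, Rrm2, which was higher (0 lower). At 6 against 2 µM, 0 were called higher with no count filter (1 lower, Kif11), 0 were called with the replicate block, without the 3 most deviating libraries or with the GC covariate, DESeq2 called 2 (1 lower, Rb1), and only the doses compared gave 2 (1 lower, Kif11). Leaving out 1 library gave 1 to 4 called (1 to 3 higher, 0 to 1 lower) at 2 against 0 µM, 4 to 6 (4 to 5 higher, 0 to 2 lower) at 6 against 0 µM, and 0 to 2 (0 to 2 higher, 0 lower) at 6 against 2 µM. Over all genes, the 377 calls at 2 against 0 µM became 631 with no count filter, 751 with DESeq2 and 106 to 490 without 1 library (203 without replicate 2 and 244 without replicate 3 at 0 µM, 213 without replicate 2 and 106 without replicate 4 at 2 µM). The 1322 at 6 against 0 µM became 710 without the 3 most deviating libraries and 918 to 1343 without 1. The 178 at 6 against 2 µM became 401 with no count filter, 445 with DESeq2, 307 with only the doses compared and 82 to 259 without 1 library (107, 99 and 82 without replicates 2, 3 and 4 at 2 µM, 93, 93 and 82 without replicates 1, 3 and 4 at 6 µM). Upper-quartile scaling moved the share of called genes that were higher at 2 against 0 µM to 57.9%, against 68.4% with TMM, and at 6 against 0 µM to 47.5%, against 55.6% with TMM. With the replicate block, edgeR called 2 of the 45 at 2 against 0 µM, 5 at 6 against 0 µM and 0 at 6 against 2 µM, and 273, 1154 and 123 genes in all. Same-numbered libraries showed little shared deviation: their deviations correlated between -0.028 and 0.0375 over 12 pairs, and 5 of 12 libraries correlated best with their own number. Whether libraries of 1 number were handled together is not stated in the labels, and these correlations cannot tell. The sums by role moved by less than 1 SD with DESeq2 size factors. The causes of these differences were not tested.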

Other observations

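The 4 libraries of Mcm2 at 6 µM had a coefficient of variation of 0.228%, below the counting error of 1.06% for its mean count, so their closeness is no measure of its biological spread. Among the 45 genes, 9 have a GC content of at most 44.6%, the lower limit used for the GC balance (Ccne2, Cdkn1b, Rb1, Rbl1, Rrm1, Ccnb1, Top2a, Bub1 and Kif11). In replicate 1 at 0 µM, whose GC-poor genes stood 0.186 above its GC-rich genes on the log2 scale relative to the dose mean, those 9 had a median deviation of 0.06 and the other 36 of -0.02. Kif11, with the largest deviation of the 9 there (0.143), had 233 CPM in that library and 196 to 216.8 CPM in the other 3 at 0 µM. Cdkn1b had the lowest, at -0.004. The median SD of log2 CPM within a dose was 0.0532 for the 9 genes and 0.0564 for the other 36. The part of this balance in the values of the mitotic genes was not tested, beyond the fit with the balance as a covariate, which called Ccnb1 higher and E2f2 lower at 6 against 0 µM as well as the 5 genes called without it (adjusted p = 0.0272 and 0.0356 by edgeR's quasi-likelihood test). With that covariate Cdc6 was not called at 6 against 2 µM (adjusted p = 0.0832 by the same test).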
